A study of Homo sapiens with 2 samples.

Results

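The respiratory chain and ATP synthase of the mitochondrial inner membrane are built from subunits encoded in 2 genomes, the mitochondrial DNA (mtDNA) and the nuclear DNA. Members were chosen by gene symbol from the 58302 gene identifiers of the count table, which gave 98 protein-coding genes. The symbol rule uses no measured value, but it was set with earlier results of these data known. Of these, 13 are mtDNA-encoded and 85 are nuclear. The nuclear members comprise 36 subunits of complex I, 4 of complex II, 10 of complex III, 19 of complex IV and 16 of complex V. NDUFA4 and NDUFA4L2 were counted with complex IV, of which the NDUFA4 protein is a subunit. Symbols of NDUFAF assembly factors were left out.

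RNA was sequenced from HK-2 cells, an established epithelial cell line of the human renal proximal tubule, at passages 7 to 11 in RPMI-1640 medium with 10% fetal bovine serum and antibiotics. One library came from cells infected for 24 h with an adenovirus carrying the Bmal1 coding sequence (Ad-Bmal1), and the other from cells infected for the same time with an adenovirus carrying green fluorescent protein (Ad-GFP). Both libraries thus carry an adenovirus, and uninfected cells were not analysed here. The labels expand the name of the cell line differently for the libraries, and both were taken as HK-2. With 1 library per group there is no replicate check and no test was possible, so every ratio below is a description of a pair of libraries and not of the treatments.

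The library labelled Ad-Bmal1 held 20051735 counts and the library labelled Ad-GFP held 20032652, and 1 CPM, a count scaled to the depth of its library, was worth 19.8 counts under the Ad-Bmal1 label and 20.3 under the Ad-GFP label. BMAL1, the clock factor the virus was to supply, had 133 counts in the library labelled Ad-Bmal1 and 204 in the library labelled Ad-GFP, a ratio of 0.667 (95% counting interval 0.532 to 0.834), so the transcript counts go against the label. Directions below are therefore given for libraries by label, and "under a label" refers to the library that carries it. Of 19 proximal tubule markers, 7 reached 1 CPM in either library, and all 19 summed to 19920 counts under the Ad-Bmal1 label and 16400 under the Ad-GFP label. PAX8 (8529 counts under the Ad-Bmal1 label and 6502 under the Ad-GFP label) and CDH6 (5856 under the Ad-Bmal1 label and 4769 under the Ad-GFP label) were among them, whereas LRP2, SLC22A2, SLC22A6, SLC22A8 and SLC7A9, which encode the receptor and transporters of the mature tubule, were at 0 in both. Epithelial markers reached 1 CPM for 5 of 6 (all 6 summed to 40642 under the Ad-Bmal1 label and 44613 under the Ad-GFP label) and went both ways. The keratin KRT18 had 3212 counts under the Ad-Bmal1 label and 4925 under the Ad-GFP label, and the cadherin CDH2 had 3369 under the Ad-Bmal1 label and 2393 under the Ad-GFP label. Fibroblast and smooth muscle markers reached 1 CPM for 4 of 10 (all 10 summed to 2012 under the Ad-Bmal1 label and 1625 under the Ad-GFP label), and blood cell and endothelial markers for 2 of 12 (all 12 summed to 422 under the Ad-Bmal1 label and 469 under the Ad-GFP label). Nearly all of the blood cell and endothelial counts were those of CSF1R, with 407 under the Ad-Bmal1 label and 433 under the Ad-GFP label. TIE1, the other that reached 1 CPM, had 7 under the Ad-Bmal1 label and 28 under the Ad-GFP label. PTPRC, CD3E, HBB and VWF were at 0 in both. Hepatocyte markers reached 1 CPM for 4 of 12 (all 12 summed to 5310 under the Ad-Bmal1 label and 6039 under the Ad-GFP label). SERPINA1 alone gave 5011 of these counts under the Ad-Bmal1 label and 5999 under the Ad-GFP label, and sets the direction of the sum. Other hepatocyte markers were higher under the Ad-Bmal1 label, with ALB at 165 counts under the Ad-Bmal1 label and 9 under the Ad-GFP label and HP at 40 under the Ad-Bmal1 label and 2 under the Ad-GFP label, but not FGB (21 under either label) or CYP3A4 (1 under the Ad-Bmal1 label and 5 under the Ad-GFP label). The part of cell makeup in the ratios below was not tested.

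Electrons from NADH enter the chain at complex I and those from succinate at complex II. They pass through ubiquinone, complex III and cytochrome c to complex IV, which reduces oxygen, and the proton gradient this builds drives ATP synthase, also called complex V. The mtDNA encodes hydrophobic core subunits of every complex but complex II, and its genes are transcribed as long precursors from both strands that are cut at the tRNAs between them, so that the mRNAs of one strand start from shared precursors. Nuclear subunits are transcribed one gene at a time, and factors of the NRF1, ETS and YY1 families are known to act at their promoters. Proximal tubule cells of the kidney depend on this system to power the reabsorption of solutes.

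Ratios are scaled counts of the library labelled Ad-Bmal1 over scaled counts of the library labelled Ad-GFP, with an exact 95% interval that covers counting error only. No molecular identifiers are described, so reads are not counts of independent molecules, and that error is a lower limit. Genes with 1 CPM or more in either library, 13231 of them, were called measured. A measured gene met the size rule as higher if its ratio lay 25% or more above 1, and as lower if its ratio was 0.8 or less, each with an interval that excluded 1. Of all measured genes, 11.6% met the rule as higher and 11.2% as lower. All 13 mtDNA members and 77 of the 85 nuclear members were measured.

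All 13 mtDNA-encoded mRNAs had a ratio above 1, against 50.4% of measured genes, though MT-CO3 did so under this scaling alone. Their median log2 ratio was 0.23 (ratio 1.18), beside 0.00 over all measured genes. The intervals of 11 of the 13 lay wholly above 1, as did those of 23.8% of measured genes. Intervals narrow with counts, and of the 5658 measured genes with 1000 or more counts, 2103 had an interval wholly above 1. MT-ND1, MT-ND4, MT-ND4L, MT-ND5 and MT-ND6 met the size rule as higher, which is 5 of 13, and none met it as lower. All of these encode membrane subunits of complex I. At a size of 1.5-fold, which 4.41% of measured genes passed as higher and 4.9% as lower, MT-ND6 was the only one of the 98 members on either side. In bulk RNA, a larger share of cells rich in mitochondria and more mitochondrial RNA per cell cannot be told apart.

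**Figure D1:**
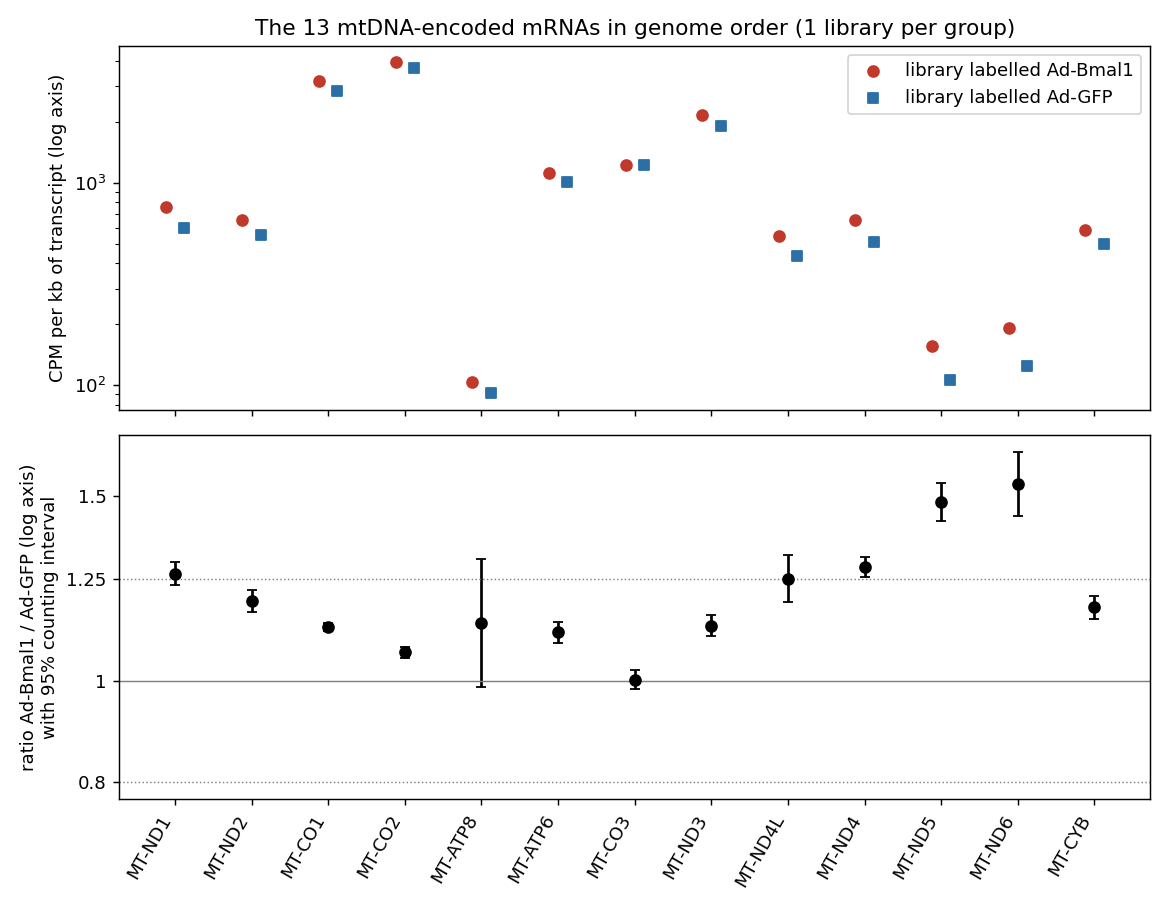
The 13 mtDNA-encoded mRNAs along the x axis in genome order. The upper panel gives CPM per kb of transcript on a log axis for the library labelled Ad-Bmal1 (red circles) and the library labelled Ad-GFP (blue squares), and the lower panel the ratio with its 95% counting interval, with dotted lines at the bounds of the size rule. MT-ND5 and MT-ND6 lie highest, at 1.48 and 1.54, and MT-CO3 lies at 1.00.

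The complex I mRNAs stood at the upper end of this range. MT-ND6, which is encoded on the strand opposite to the other 12, had 1993 counts in the library labelled Ad-Bmal1 and 1323 in the library labelled Ad-GFP, a ratio of 1.54 (1.44 to 1.65). MT-ND5, a proton-pumping subunit at the far end of the membrane arm, had 5600 counts under the Ad-Bmal1 label and 3867 under the Ad-GFP label, a ratio of 1.48 (1.42 to 1.54). These neighbouring genes, on opposite strands, had higher ratios than every other mtDNA member, and their intervals overlap. The strand setting of the counting is not given, so counts on MT-ND6 may include reads from the strand of MT-ND5. That part was not tested. The count of MT-ND6 relative to MT-ND5 was 0.356 in the library labelled Ad-Bmal1 and 0.342 in the library labelled Ad-GFP, so the ratio of these quotients was 1.04 (0.960 to 1.13), within counting error.

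MT-ND4, another proton-pumping subunit, had 17876 counts under the Ad-Bmal1 label and 14236 under the Ad-GFP label, a ratio of 1.28 (1.26 to 1.31). MT-ND4L, which lies ahead of MT-ND4 in the same mRNA, had 3196 counts under the Ad-Bmal1 label and 2612 under the Ad-GFP label, a ratio of 1.252 (1.19 to 1.32). MT-ND1, which forms part of the ubiquinone site, had 14341 counts under the Ad-Bmal1 label and 11594 under the Ad-GFP label, a ratio of 1.27 (1.23 to 1.30). The intervals of these mRNAs overlap one another and lie below those of MT-ND5 and MT-ND6. The remaining complex I mRNAs were lower in the order. MT-ND2, a proton-pumping subunit, had 13579 counts under the Ad-Bmal1 label and 11662 under the Ad-GFP label (1.19, 1.16 to 1.22), and MT-ND3, a small subunit at the joint of the arms, had 14836 under the Ad-Bmal1 label and 13447 under the Ad-GFP label (1.13, 1.1 to 1.16).

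MT-CYB, cytochrome b of complex III, had 13184 counts in the library labelled Ad-Bmal1 and 11475 in the library labelled Ad-GFP, a ratio of 1.18 (1.15 to 1.21), close to MT-ND2. Complex IV mRNAs were nearer to 1. MT-CO1, which binds the oxygen-reducing haem and copper centre, had 97796 counts under the Ad-Bmal1 label and 88850 under the Ad-GFP label, a ratio of 1.13 (1.12 to 1.14). MT-CO2, which takes electrons from cytochrome c, had 53348 under the Ad-Bmal1 label and 51253 under the Ad-GFP label (1.07, 1.05 to 1.08). MT-CO3, the third core subunit, had 19047 under the Ad-Bmal1 label and 19436 under the Ad-GFP label (1.00, 0.983 to 1.02), and its ratio lay between 0.979 and 0.999 under every other scaling tried. The complex V mRNAs lay with MT-CO1. MT-ATP6, the proton channel subunit, had 15115 counts under the Ad-Bmal1 label and 13897 under the Ad-GFP label (1.11, 1.09 to 1.14), and MT-ATP8, a small subunit of the stator, had 425 under the Ad-Bmal1 label and 383 under the Ad-GFP label (1.14, 0.987 to 1.31).

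Grouped by complex, the median ratio of the 7 complex I mRNAs was 1.27, MT-CYB had 1.18, the 2 complex V mRNAs had 1.12 and the 3 complex IV mRNAs 1.07. The summed complex I mRNAs were 0.420 of the summed complex IV mRNAs in the library labelled Ad-Bmal1 and 0.368 in the library labelled Ad-GFP. This quotient needs no scaling of the libraries and its ratio between the libraries was 1.14 (1.13 to 1.15). Relative to MT-CO1, MT-ND5 was 0.0573 under the Ad-Bmal1 label and 0.0435 under the Ad-GFP label, a ratio of 1.32 (1.26 to 1.37), and MT-ND6 was 0.0204 under the Ad-Bmal1 label and 0.0149 under the Ad-GFP label, a ratio of 1.37 (1.28 to 1.47). The mtDNA mRNAs therefore did not share a common ratio within counting error.

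Levels per kb of transcript differed far more between mtDNA mRNAs than between libraries. MT-CO2 was highest, at 3936 CPM per kb in the library labelled Ad-Bmal1 and 3696 in the library labelled Ad-GFP, and MT-ATP8 lowest, at 104 under the Ad-Bmal1 label and 91.3 under the Ad-GFP label, a span of 38-fold under the Ad-Bmal1 label and of 40.5-fold under the Ad-GFP label. MT-ND5 had the next lowest level, at 156 under the Ad-Bmal1 label and 105 under the Ad-GFP label, and MT-ND6 the one above it, at 192 under the Ad-Bmal1 label and 124 under the Ad-GFP label. The members with the largest ratios thus had the lowest levels apart from MT-ATP8. Their share of all counts on the 13 mRNAs was 2.07% under the Ad-Bmal1 label and 1.58% under the Ad-GFP label for MT-ND5, and 0.737% under the Ad-Bmal1 label and 0.542% under the Ad-GFP label for MT-ND6.

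Some mtDNA genes overlap, and the reads of the shared bases cannot be assigned to either gene. MT-ATP8 (chrM:8366-8572) and MT-ATP6 (chrM:8527-9207), on the plus strand of GRCh38 in GENCODE v29, share 46 bases of coding sequence at chrM:8527-8572. MT-ND4L (chrM:10470-10766) and MT-ND4 (chrM:10760-12137) share 7. The longer stretch is shown because it makes up 22.2% of the short MT-ATP8 gene, and the start codon of MT-ATP6 and the stop codon of MT-ATP8 are in capitals.
MT-ATP8 and MT-ATP6 shared bases: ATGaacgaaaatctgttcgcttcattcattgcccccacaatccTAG
Although the cell makes each pair as a joint mRNA, MT-ATP6 had 10.8 times the level of MT-ATP8 per kb in the library labelled Ad-Bmal1 and 11.0 times in the library labelled Ad-GFP. The same quotient for MT-ND4 over MT-ND4L was 1.21 under the Ad-Bmal1 label and 1.17 under the Ad-GFP label. How the authors' counting treated reads in shared bases is not given in the sources used here.

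The libraries were made from polyadenylated RNA, and mitochondrial mRNAs differ in how they end. Of the 13 reading frames, 6 stop short of a whole last codon, which the tail completes by known biochemistry, and 7 end in a whole codon. MT-ND6 ends in an AGG codon, its mRNA runs on past it, and it is known to carry little or no tail. The last bases of the annotated transcripts of the members that met the size rule are shown, 5′ to 3′ in the sense of each gene, with the last codon or its remnant in capitals.
MT-ND1 end: ccccctcaaaccTA
MT-ND4L end: ctactccaatgcTAA
MT-ND4 end: gggttttcctctT
MT-ND5 end: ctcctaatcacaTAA
MT-ND6 end: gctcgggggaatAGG
Both kinds of end occur among the mRNAs with the largest ratios. MT-ND1 (chrM:3307-4262) and MT-ND4 end in an incomplete codon, and MT-ND4L and MT-ND5 (chrM:12337-14148) in TAA. MT-ND6 lies at chrM:14149-14673 on the minus strand, next to MT-ND5.

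The mtDNA also encodes the RNAs of the mitochondrial ribosome, which are not members. MT-RNR2, the large rRNA, had 65622 counts in the library labelled Ad-Bmal1 and 50305 in the library labelled Ad-GFP (ratio 1.33, 1.32 to 1.35), and MT-RNR1, the small rRNA, had 6595 under the Ad-Bmal1 label and 5371 under the Ad-GFP label (1.26, 1.21 to 1.30). Relative to MT-CO1, the ratio of MT-RNR2 was 1.19 (1.17 to 1.20). The 22 tRNAs summed to 4411 counts under the Ad-Bmal1 label and 4848 under the Ad-GFP label, nearly all from 8 light-strand tRNAs (4258 under the Ad-Bmal1 label and 4730 under the Ad-GFP label), and 5 tRNAs were measured. MT-TN, the tRNA of asparagine, had 1678 counts under the Ad-Bmal1 label and 2013 under the Ad-GFP label (0.853, 0.799 to 0.910). It was the measured mtDNA RNA with the lowest ratio. All 37 mtDNA genes took 1.73% of counts in the library labelled Ad-Bmal1 and 1.52% in the library labelled Ad-GFP. The nucleus holds 394 pseudogene copies of mtDNA genes in this table. They summed to 2251 counts under the Ad-Bmal1 label and 1963 under the Ad-GFP label, small beside 270336 under the Ad-Bmal1 label and 244035 under the Ad-GFP label for the 13 mRNAs. The copies fell on few genes. Relative to the gene itself they came to 6.34% under the Ad-Bmal1 label and 6.09% under the Ad-GFP label for MT-ATP6. For MT-ND2 they came to 6.38% under the Ad-Bmal1 label and 6.21% under the Ad-GFP label.

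The 77 measured nuclear members had a median log2 ratio of -0.04 (ratio 0.970) and lay close around 1. Of these, 48 had a ratio below 1, which is 62.3% against 49.6% of measured genes, and 29 a ratio above it. The share depends on transcript length. Under 1500 nt, 57.7% of nuclear members lay below 1 against 61.8% of measured genes, and at 1500 nt or more 72% against 47.0%. Intervals lay wholly below 1 for 26 members and wholly above it for 9, beside 21.6% and 23.8% of measured genes, and included 1 for 42. UQCRC2, NDUFS7, NDUFV1, SDHD and COX6A1 met the size rule as lower, which is 5 of 77 against 11.2% of measured genes, and none met it as higher. Among the 5658 measured genes with 1000 or more counts, 7.25% met it as lower and 11.7% as higher. Of those 5658, 1560 had an interval wholly below 1 and 2103 one wholly above it. With the trend on transcript length removed, the nuclear median turned to 0.01, with 42 members above 1 and 35 below, and COX6A1 and SDHD no longer met the rule while SDHC did.

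**Figure D2:**
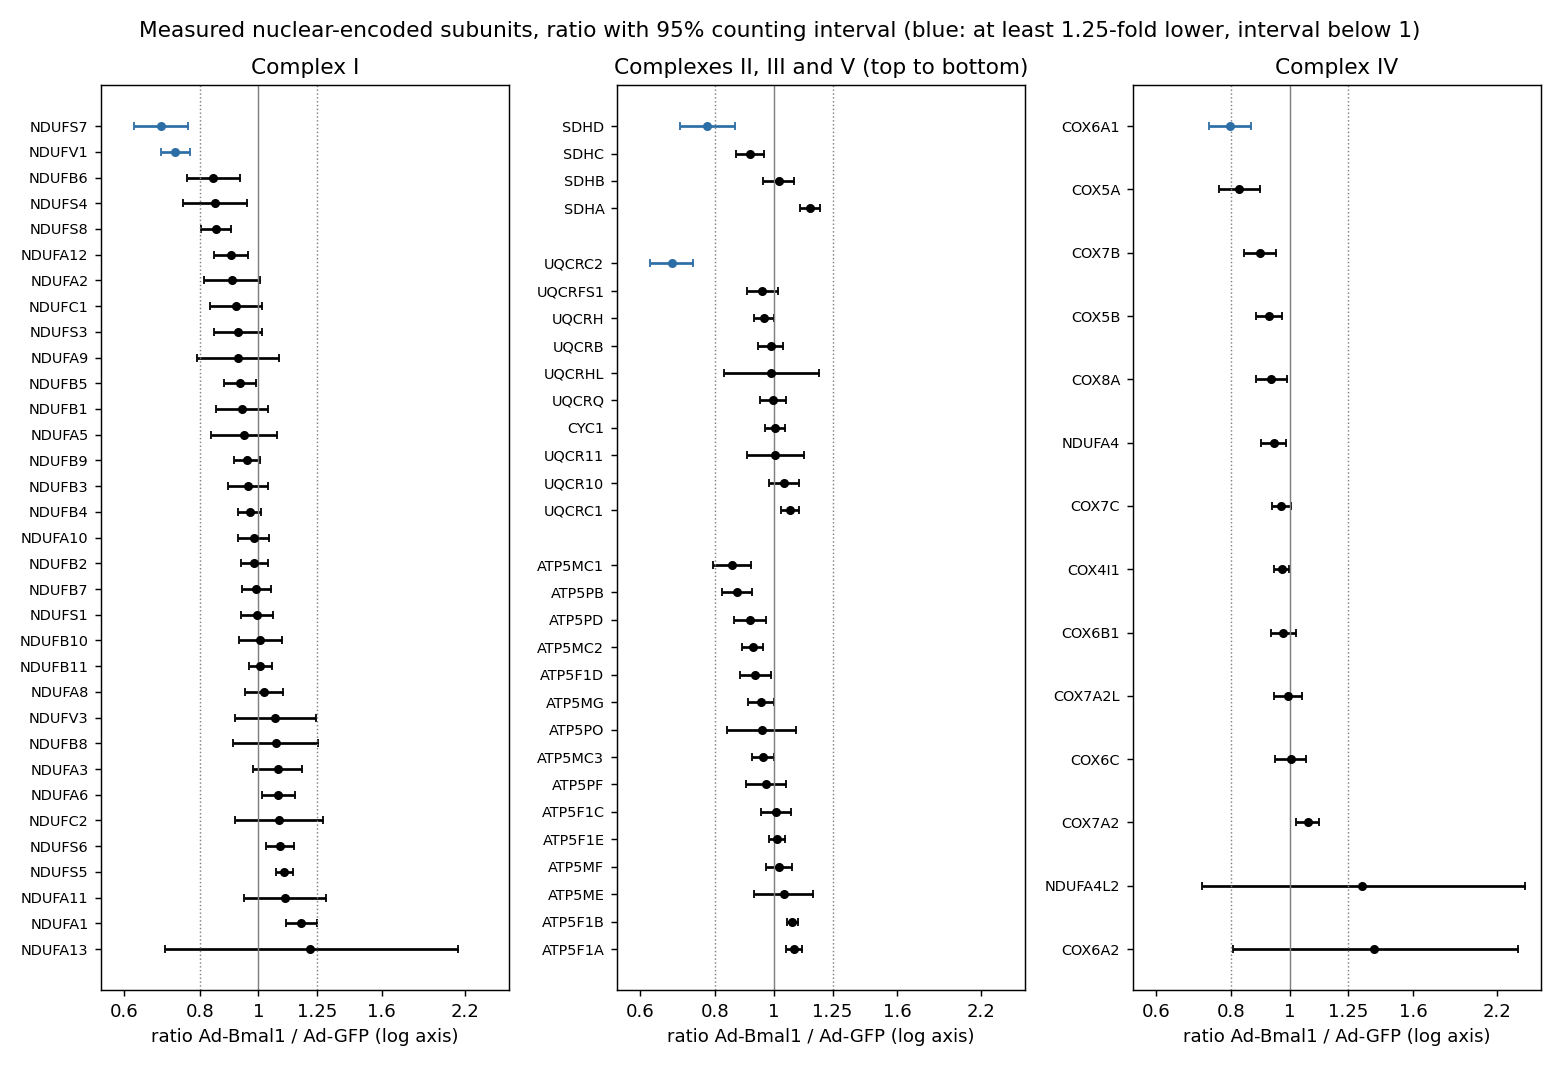
Ratio with 95% counting interval, on a log x axis, of the measured nuclear members apart from 1 that is not reported here, grouped by complex and ordered by ratio, with dotted lines at the bounds of the size rule. The 5 members that met the size rule as lower are in blue, from UQCRC2 at 0.678 to COX6A1 at 0.796, and no member met it as higher.

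Complex I had 34 measured nuclear members, 21 below 1 and 13 above it, with a median log2 ratio of -0.04. NDUFS7 holds the last iron-sulfur cluster ahead of ubiquinone and had 611 counts in the library labelled Ad-Bmal1 and 905 in the library labelled Ad-GFP, a ratio of 0.691 (0.622 to 0.766). NDUFV1 binds NADH and the flavin cofactor at the entry of the complex and had 2217 counts under the Ad-Bmal1 label and 3113 under the Ad-GFP label, a ratio of 0.729 (0.690 to 0.770). Both subunits belong to the redox arm of the enzyme. NDUFS8, another iron-sulfur subunit, had 2107 counts under the Ad-Bmal1 label and 2532 under the Ad-GFP label (0.851, 0.803 to 0.902).

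NDUFS3 and NDUFS1, also core subunits of complex I, had ratios nearer to 1. NDUFS3 had 922 counts under the Ad-Bmal1 label and 1019 under the Ad-GFP label (0.926, 0.846 to 1.01), and the iron-sulfur subunit NDUFS1 had 2170 under the Ad-Bmal1 label and 2232 under the Ad-GFP label (0.995, 0.937 to 1.06). The intervals of both include 1. The 28 measured accessory subunits had a median ratio of 0.989, with 13 above 1 and 15 below, from 0.843 for NDUFB6 to 1.22 for NDUFA13, a gene with few counts. The core subunits NDUFS7, NDUFV1 and NDUFS8, chosen after their values were seen, had intervals below 1, whereas those of all 7 MT-ND mRNAs, the core subunits from the other genome, lay above 1.

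Among the accessory subunits of complex I, NDUFS5 had 7849 counts in the library labelled Ad-Bmal1 and 7273 in the library labelled Ad-GFP (1.1, 1.07 to 1.14). NDUFB11 had 4248 under the Ad-Bmal1 label and 4312 under the Ad-GFP label (1.01, 0.966 to 1.05), and NDUFB4 had 4220 under the Ad-Bmal1 label and 4464 under the Ad-GFP label (0.967, 0.927 to 1.01). NDUFA1, a small membrane arm subunit encoded on the X chromosome, had 2347 counts under the Ad-Bmal1 label and 2038 under the Ad-GFP label and the highest ratio of those with an interval above 1 (1.18, 1.11 to 1.251). NDUFA11, also of the membrane arm, had 340 counts under the Ad-Bmal1 label and 314 under the Ad-GFP label (1.11, 0.948 to 1.30). None of these met the size rule.

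Complex II has no mtDNA subunit, and its members lay on both sides of 1. SDHA, the flavoprotein that oxidises succinate, had 5334 counts in the library labelled Ad-Bmal1 and 4757 in the library labelled Ad-GFP, a ratio of 1.15 (1.1 to 1.19). SDHB, the iron-sulfur subunit, had 2252 under the Ad-Bmal1 label and 2264 under the Ad-GFP label (1.02, 0.960 to 1.08), and lay below 1 under both total-count scalings but not under the others. The membrane anchors were lower in the library labelled Ad-Bmal1. SDHC had 2472 counts under the Ad-Bmal1 label and 2773 under the Ad-GFP label (0.912, 0.864 to 0.963), and SDHD had 639 under the Ad-Bmal1 label and 843 under the Ad-GFP label (0.776, 0.699 to 0.861).

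Complex III held the lowest ratio of all members. UQCRC2, a core protein on the matrix side, had 980 counts in the library labelled Ad-Bmal1 and 1480 in the library labelled Ad-GFP, a ratio of 0.678 (0.624 to 0.735). Its partner core protein UQCRC1 had 6796 counts under the Ad-Bmal1 label and 6539 under the Ad-GFP label (1.06, 1.03 to 1.1), so the pair differed in direction. The electron carriers of the complex stayed near 1. CYC1, cytochrome c1, had 5563 counts under the Ad-Bmal1 label and 5668 under the Ad-GFP label (1.00, 0.968 to 1.04), and UQCRFS1, the Rieske iron-sulfur protein, had 2165 under the Ad-Bmal1 label and 2316 under the Ad-GFP label (0.957, 0.902 to 1.01). UQCR10, a small subunit, had 2319 under the Ad-Bmal1 label and 2283 under the Ad-GFP label (1.04, 0.981 to 1.1). UQCRH, the hinge protein, had 5590 counts under the Ad-Bmal1 label and 5943 under the Ad-GFP label (0.962, 0.928 to 0.998), and its intronless relative UQCRHL had 239 under the Ad-Bmal1 label and 247 under the Ad-GFP label (0.990, 0.825 to 1.19). Reads can be shared between this pair, and their sum gave 0.964 (0.930 to 0.999).

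Complex IV had 14 measured nuclear members, 10 of them below 1. COX6A1, the broadly expressed form of subunit VIa, had 1092 counts in the library labelled Ad-Bmal1 and 1404 in the library labelled Ad-GFP, a ratio of 0.796 (0.735 to 0.862). With its pseudogene COX6A1P2 (96 counts under the Ad-Bmal1 label and 109 under the Ad-GFP label) added, the ratio was 0.803 and no longer met the size rule. COX5A, a matrix-facing subunit, had 1152 counts under the Ad-Bmal1 label and 1428 under the Ad-GFP label (0.825, 0.763 to 0.893), and COX7B, a small membrane subunit, had 2005 under the Ad-Bmal1 label and 2295 under the Ad-GFP label (0.894, 0.842 to 0.95). The more abundant subunits lay closer to 1. COX4I1, the main form of subunit IV, had 9922 under the Ad-Bmal1 label and 10469 under the Ad-GFP label (0.970, 0.943 to 0.997). COX7C had 5797 counts under the Ad-Bmal1 label and 6130 under the Ad-GFP label (0.968, 0.933 to 1.00), and NDUFA4 had 3280 under the Ad-Bmal1 label and 3570 under the Ad-GFP label (0.940, 0.896 to 0.986). COX7A2, the broadly expressed form of subunit VIIa, had 4266 under the Ad-Bmal1 label and 4077 under the Ad-GFP label and was the only nuclear member of the complex with an interval above 1 (1.07, 1.03 to 1.12). COX8A had 2180 under the Ad-Bmal1 label and 2391 under the Ad-GFP label (0.933, 0.880 to 0.989), and COX6C had 2251 under the Ad-Bmal1 label and 2294 under the Ad-GFP label (1.00, 0.947 to 1.06), which lay below 1 under DESeq2 size factors and both total-count scalings. COX6B1 had 3450 counts under the Ad-Bmal1 label and 3617 under the Ad-GFP label (0.976, 0.931 to 1.02), and COX7A2L, which joins complexes III and IV, had 2711 under the Ad-Bmal1 label and 2789 under the Ad-GFP label (0.995, 0.943 to 1.05).

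Tissue-restricted forms of complex IV subunits were at or near background. COX6A2, the heart and muscle partner of COX6A1, had 35 counts in the library labelled Ad-Bmal1 and 26 in the library labelled Ad-GFP (1.38, 0.806 to 2.38). COX7A1, also a heart and muscle form, had 7 under the Ad-Bmal1 label and 7 under the Ad-GFP label, and COX6B2, a testis form, had 9 under the Ad-Bmal1 label and 6 under the Ad-GFP label. COX4I2, COX7B2 and COX8C were at 0 in both, which allows up to 3 counts in each library. NDUFA4L2, the relative of NDUFA4 that is known to respond to hypoxia, had 27 counts under the Ad-Bmal1 label and 21 under the Ad-GFP label (1.32, 0.716 to 2.45). In both libraries the broadly expressed form of each of these subunits held nearly all of the counts.

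Complex V had 15 measured nuclear members, 9 below 1 and 6 above it, from 0.852 for ATP5MC1 to 1.08 for ATP5F1A, and none met the size rule. Of the 5 subunits of F1, the part that holds the catalytic sites and the central stalk, 4 lay above 1. Of these, ATP5F1C and ATP5F1E lay below 1 under DESeq2 size factors and both total-count scalings. ATP5F1B, the catalytic beta subunit, had 20456 counts in the library labelled Ad-Bmal1 and 19512 in the library labelled Ad-GFP (1.07, 1.05 to 1.09), the highest counts of any nuclear member. ATP5F1A, the alpha subunit, had 8122 under the Ad-Bmal1 label and 7702 under the Ad-GFP label (1.08, 1.05 to 1.11), and ATP5F1E, the epsilon subunit, had 7607 under the Ad-Bmal1 label and 7693 under the Ad-GFP label (1.01, 0.980 to 1.04). The 5 F1 subunits had a median ratio of 1.01, and the 10 measured subunits of the peripheral stalk and membrane part 0.953. This grouping was chosen after the values were seen. ATP5PB, of the peripheral stalk, had 2180 counts under the Ad-Bmal1 label and 2570 under the Ad-GFP label (0.868, 0.819 to 0.919).

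The ring that turns with the proton flow is made of subunit c, and ATP5MC1, ATP5MC2 and ATP5MC3 encode the same mature protein with different import sequences. ATP5MC1 had 1338 counts in the library labelled Ad-Bmal1 and 1607 in the library labelled Ad-GFP (0.852, 0.792 to 0.917). ATP5MC2 had 4973 under the Ad-Bmal1 label and 5522 under the Ad-GFP label (0.921, 0.887 to 0.958), and ATP5MC3 had 4229 under the Ad-Bmal1 label and 4517 under the Ad-GFP label (0.958, 0.918 to 0.999). All of them were below 1, none of them met the size rule, and their summed counts were 10540 under the Ad-Bmal1 label and 11646 under the Ad-GFP label, a ratio of 0.926 (0.902 to 0.951). The mix of genes was much alike, with ATP5MC1, ATP5MC2 and ATP5MC3 giving 12.7%, 47.2% and 40.1% of the sum under the Ad-Bmal1 label, and 13.8%, 47.4% and 38.8% under the Ad-GFP label.

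The choice of scaling moved members that lay near 1. Over TMM, DESeq2 size factors, upper-quartile and both total-count scalings, the nuclear median log2 ratio ranged from -0.08 to -0.04 and the mtDNA median from 0.20 to 0.23. ATP5F1C, ATP5F1E, ATP5MF, COX6C, CYC1, NDUFA8, NDUFB10, NDUFB11, SDHB and UQCR11 changed side of 1 across these scalings, as did MT-CO3. MT-ND4, MT-ND5 and MT-ND6 met the size rule under each of them, while MT-ND1 and MT-ND4L did not under DESeq2 size factors or either total-count scaling. MT-ND4L also missed it under upper-quartile scaling.

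The genomes can be compared within a library, where no scaling enters. Counts on the 13 mtDNA mRNAs were 1.32 times those on the nuclear members in the library labelled Ad-Bmal1 and 1.14 times in the library labelled Ad-GFP, a ratio between libraries of 1.15 (1.14 to 1.16). By complex, the mtDNA sum over the nuclear sum was 1.22 under the Ad-Bmal1 label and 0.954 under the Ad-GFP label in complex I, a ratio between libraries of 1.28 (1.26 to 1.30), the highest of the complexes. It was 0.430 under the Ad-Bmal1 label and 0.362 under the Ad-GFP label in complex III (1.19, 1.15 to 1.22). Complex IV had 4.11 under the Ad-Bmal1 label and 3.62 under the Ad-GFP label (1.14, 1.12 to 1.15), and complex V had 0.242 under the Ad-Bmal1 label and 0.219 under the Ad-GFP label (1.11, 1.08 to 1.13). In every complex with subunits of both genomes the mtDNA share was higher in the library labelled Ad-Bmal1.

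**Figure D3:**
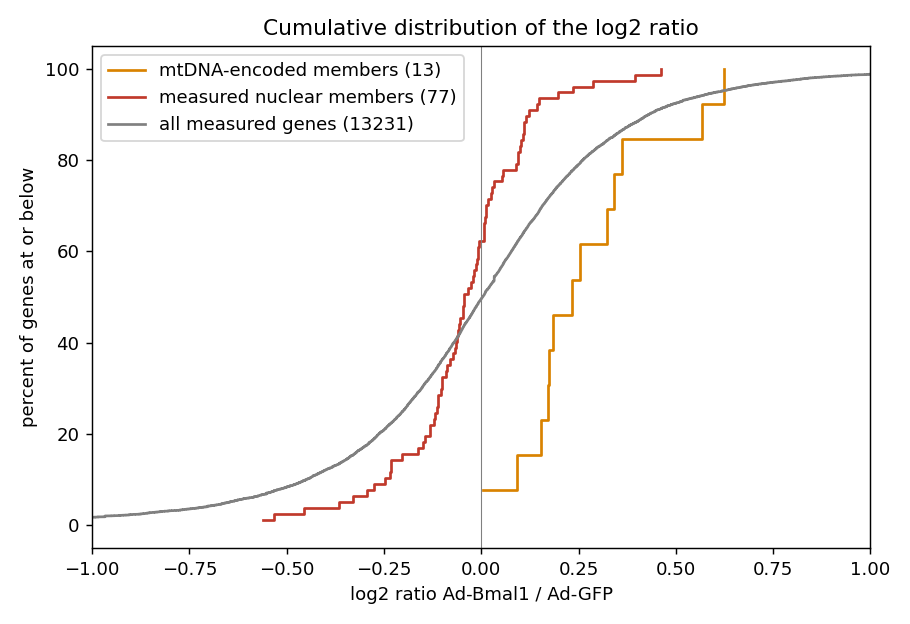
Cumulative percent of genes (y axis) at or below each log2 ratio (x axis) for the 13 mtDNA members, the 77 measured nuclear members and all 13231 measured genes. The mtDNA line lies to the right, with a median of 0.23, and the nuclear line is steeper than that of all genes, with a median of -0.04.

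Levels also differed between the genomes. The median of the mtDNA members was 658 CPM per kb in the library labelled Ad-Bmal1 and 552 in the library labelled Ad-GFP, and that of the measured nuclear members 85.3 under the Ad-Bmal1 label and 87.0 under the Ad-GFP label. NDUFS5 had 723 CPM per kb under the Ad-Bmal1 label and 655 under the Ad-GFP label, and COX4I1 had 707 under the Ad-Bmal1 label and 729 under the Ad-GFP label. Each of these was the highest nuclear level in one library. The lowest was that of NDUFA4L2, at 1.15 under the Ad-Bmal1 label and 0.873 under the Ad-GFP label. The top nuclear members therefore lay near the middle of the mtDNA range. As a share of all counts, the mtDNA members took 1.35% under the Ad-Bmal1 label and 1.22% under the Ad-GFP label, and the nuclear members 1.03% under the Ad-Bmal1 label and 1.06% under the Ad-GFP label.

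Transcript length moved with the ratio over all measured genes. Genes under 1500 nt had a median log2 ratio of -0.08 (2301 genes) and longer ones 0.02 (10916 genes), and in 20 bins by length the median ranged from -0.10 to 0.22, highest at a median length of 10720 nt. Most members are short. The 52 measured nuclear members under 1500 nt had a median of -0.03 and the 25 longer ones -0.06, so the longer members did not have higher ratios. Of the 13 mtDNA mRNAs, 11 are under 1500 nt and yet had ratios above 1, and with the trend removed their median was 0.32. The part of length in single ratios was not tested beyond this.

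**Figure D4:**
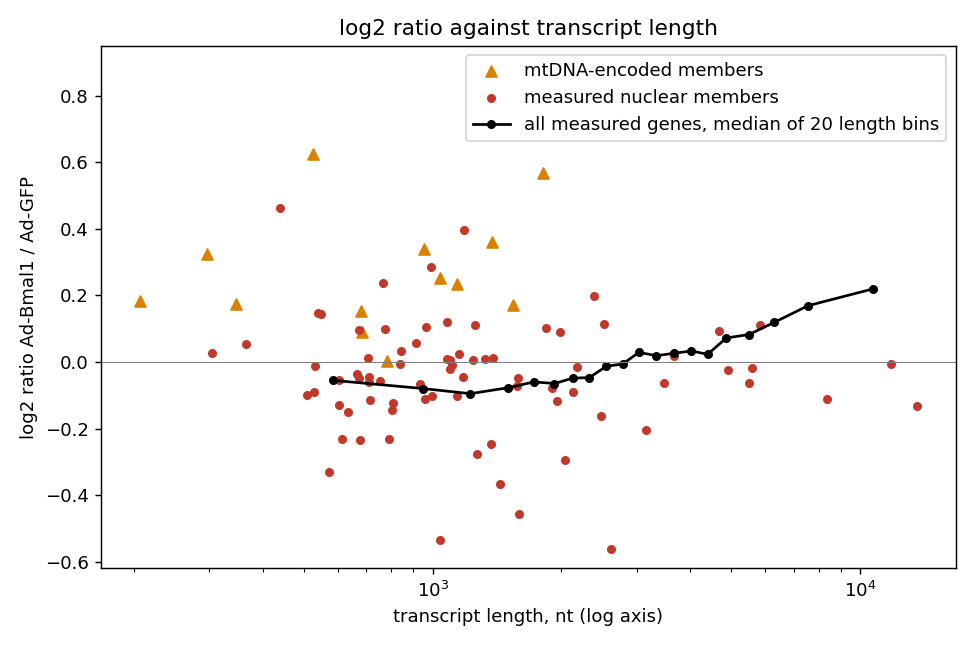
The log2 ratio (y axis) against annotated transcript length in nt (log x axis) for mtDNA members (triangles), measured nuclear members (red points) and the median of all measured genes in 20 length bins (black line). The line runs from -0.06 in the shortest bin to 0.22 in the longest, and 11 of the 13 triangles lie under 1500 nt and all 13 lie above 0, MT-CO3 under this scaling alone.

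Of the 8 nuclear members that were not measured, ATP5MGL, COX4I2, COX7B2 and COX8C were at 0, and COX7A1, COX6B2, NDUFV2 and NDUFA7 had counts. NDUFV2 had 6 counts in the library labelled Ad-Bmal1 and 7 in the library labelled Ad-GFP, and NDUFA7 had 9 under the Ad-Bmal1 label and 3 under the Ad-GFP label. NDUFV2 is a core subunit of complex I that pairs with NDUFV1, which had 2217 counts under the Ad-Bmal1 label and 3113 under the Ad-GFP label. Both genes overlap other annotated genes over most of their length. Exons of other genes cover 82.9% of the NDUFV2 transcript (chr18:9102630-9134345, plus strand, gene span in GRCh38), where AP005263.1 had 0 counts in both. They cover 78.7% of the NDUFA7 transcript (chr19:8308768-8321396, minus strand). There RPS28 had 7754 counts under the Ad-Bmal1 label and 9069 under the Ad-GFP label, and AC010323.1 had 0 under the Ad-Bmal1 label and 2 under the Ad-GFP label. The part of each neighbour in the overlap of NDUFA7 was not separated.

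Another 3 members reached this degree of overlap. Exons of other genes cover 71.7% of NDUFB8, 70.3% of ATP5PO and 67.0% of NDUFA11. Those on NDUFB8 belong to HIF1AN, with 3109 counts under the Ad-Bmal1 label and 2697 under the Ad-GFP label, and AL133352.1, with 0 in both. The part of each in the overlap was not separated. The 5 members overlapped over 50% or more, of which NDUFV2 and NDUFA7 did not reach 1 CPM, had a median of 15.6 CPM in the library labelled Ad-Bmal1 and 14.6 in the library labelled Ad-GFP, while the 74 measured nuclear members with less overlap had a median of 110 CPM under the Ad-Bmal1 label and 113 under the Ad-GFP label. The part of the overlap in these counts was not tested, and the counts of these members are uncertain as levels. NDUFA13 was also low, with 31 counts under the Ad-Bmal1 label and 26 under the Ad-GFP label, and 44.1% of its transcript is overlapped. NDUFV2 has a processed copy, NDUFV2P1, with 45 counts under the Ad-Bmal1 label and 25 under the Ad-GFP label, and the sum of both gave a ratio of 1.63 (1.03 to 2.62).

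**Figure D5:**
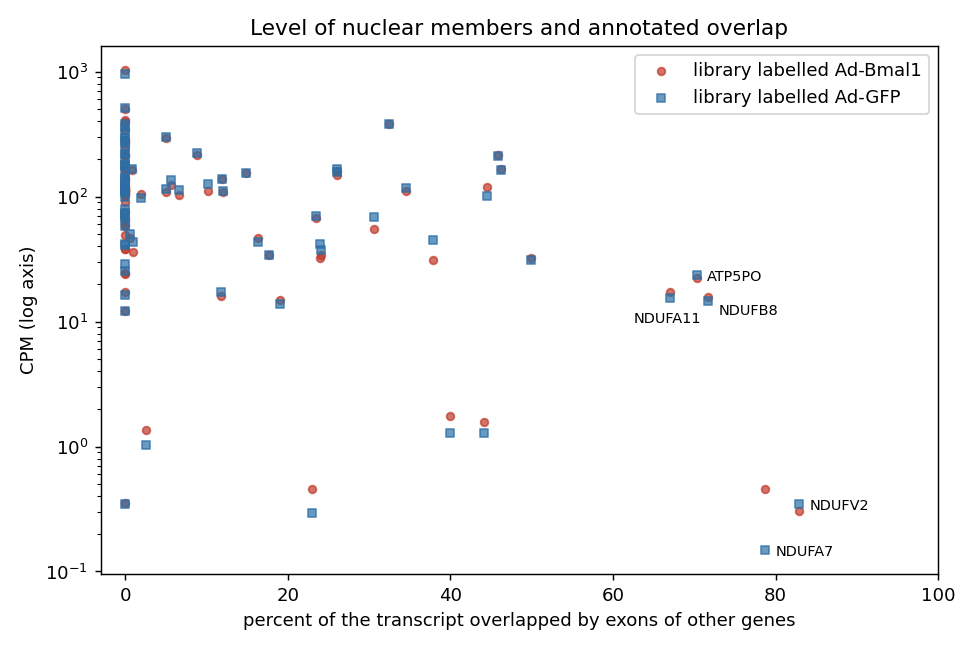
CPM (log y axis) of each nuclear member with a count against the percent of its annotated transcript that exons of other genes overlap (x axis), for the library labelled Ad-Bmal1 (red circles) and the library labelled Ad-GFP (blue squares). The 5 named members lie at 67.0% to 82.9%, at or below 23.5 CPM.

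Promoters of the nuclear members were read for 4 short motifs, because the members are known to share regulators. RefSeq promoters (GRCh38.p14, 250 bases before to 50 after the start) matched 66 of the 85 nuclear members by symbol. The NRF1 motif GCGCATGC, searched on both strands as were all the motifs, was in 13 of 66 members (19.7%), beside 5.59% of measured genes and 3.27% of all 27305 promoters. The YY1 motif AAGATGG was in 16 members (24.2%), beside 7.63% and 6.06%, and the ETS motif CCGGAAG in 19 (28.8%), beside 19.7% and 10.7%. The E-box CACGTG, the element CLOCK and BMAL1 bind, was in 7 members (10.6%), beside 10.4% and 7.43%. Those 7 were ATP5MC1, ATP5ME, ATP5PB, NDUFA11, NDUFA7, NDUFS7 and UQCR11, and their ratios lay on both sides of 1.

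The 250 bases before the start of the 5 members that met the size rule as lower are shown 5′ to 3′ in the sense of the gene, with matches to any of the 4 motifs in capitals.
UQCRC2, chr16:21953111-21953360, plus strand: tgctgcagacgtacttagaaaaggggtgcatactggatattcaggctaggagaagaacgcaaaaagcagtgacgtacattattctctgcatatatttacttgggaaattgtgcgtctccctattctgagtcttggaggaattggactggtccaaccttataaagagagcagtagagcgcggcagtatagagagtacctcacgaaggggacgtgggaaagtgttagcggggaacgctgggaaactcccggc
NDUFS7, chr19:1383657-1383906, plus strand: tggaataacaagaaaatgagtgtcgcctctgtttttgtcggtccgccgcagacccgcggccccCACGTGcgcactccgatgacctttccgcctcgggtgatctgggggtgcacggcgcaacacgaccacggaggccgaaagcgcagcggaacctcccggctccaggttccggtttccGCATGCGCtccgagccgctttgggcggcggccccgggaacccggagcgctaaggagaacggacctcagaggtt
NDUFV1, chr11:67606686-67606935, plus strand: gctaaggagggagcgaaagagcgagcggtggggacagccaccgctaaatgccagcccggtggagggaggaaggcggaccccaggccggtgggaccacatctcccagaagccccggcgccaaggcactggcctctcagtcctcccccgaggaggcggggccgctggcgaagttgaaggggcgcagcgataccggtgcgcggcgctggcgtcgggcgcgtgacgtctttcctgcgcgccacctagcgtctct
SDHD, chr11:112086623-112086872, plus strand: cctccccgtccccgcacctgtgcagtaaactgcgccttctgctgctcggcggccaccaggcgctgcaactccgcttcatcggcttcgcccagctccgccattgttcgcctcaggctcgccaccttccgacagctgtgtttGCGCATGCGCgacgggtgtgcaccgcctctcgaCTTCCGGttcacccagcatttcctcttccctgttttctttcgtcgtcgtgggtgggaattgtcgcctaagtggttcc
COX6A1, chr12:120437863-120438112, plus strand: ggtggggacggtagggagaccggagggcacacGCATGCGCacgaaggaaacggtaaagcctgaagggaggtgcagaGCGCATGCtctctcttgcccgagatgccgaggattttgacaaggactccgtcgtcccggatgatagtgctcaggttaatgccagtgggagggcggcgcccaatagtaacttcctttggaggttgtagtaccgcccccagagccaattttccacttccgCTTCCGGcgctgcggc
The 5 promoters hold different motifs. SDHD, COX6A1 and NDUFS7 hold the NRF1 motif, which in SDHD matches on both strands at overlapping positions, and SDHD and COX6A1 hold the ETS motif. NDUFS7 alone of the 5 holds an E-box. UQCRC2 and NDUFS7 hold the YY1 motif in the 50 bases after the start, outside the stretch shown, and NDUFV1 holds none of the 4 in its window. A match describes these letters and is not a measured binding site.

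Genes that build or run the chain were read as lists beside the members. Of 15 measured subunits and carriers outside the rule, 1 met the size rule as higher and 3 as lower, with a median log2 ratio of -0.05. Of all measured genes, 11.6% met it as higher and 11.2% as lower. NDUFAB1, the acyl carrier protein that is also a complex I subunit, was the higher one of this list, with 1050 counts under the Ad-Bmal1 label and 820 under the Ad-GFP label (1.31, 1.19 to 1.44). HIGD1A, a hypoxia-induced partner of complexes III and IV, had 364 under the Ad-Bmal1 label and 539 under the Ad-GFP label (0.691, 0.603 to 0.791), and COQ10A 176 under the Ad-Bmal1 label and 226 under the Ad-GFP label (0.797, 0.651 to 0.975). AOX1, listed by its symbol, is aldehyde oxidase in humans and no carrier of the chain, and had 45 counts under the Ad-Bmal1 label and 111 under the Ad-GFP label (0.415, 0.287 to 0.592). Cytochrome c, CYCS, had 2899 under the Ad-Bmal1 label and 2665 under the Ad-GFP label (1.11, 1.06 to 1.17).

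Assembly factors lay near 1. For complex I, 2 of 19 measured met the size rule as higher and 2 as lower, beside 11.6% and 11.2% of all measured genes. The higher ones were NDUFAF2, with 560 counts under the Ad-Bmal1 label and 449 under the Ad-GFP label (1.28), and NDUFAF4, with 215 under the Ad-Bmal1 label and 167 under the Ad-GFP label (1.32). The lower ones were DMAC1, with 568 under the Ad-Bmal1 label and 735 under the Ad-GFP label (0.791), and NUBPL, with 163 under the Ad-Bmal1 label and 216 under the Ad-GFP label (0.772). For complexes II and III, 1 of 10 was higher, UQCC3 (1.27), and 2 lower, TTC19 (0.787) and SDHAF3 (0.771). For complex IV, 1 of 24 was higher, COA7 (1.31), and none lower, and for complex V none of 5 met it in either direction. The median log2 ratios of these lists ran from -0.12 to -0.02.

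Factors that act on mtDNA and its RNA had median ratios close to 1. Of 19 that transcribe or replicate mtDNA, 2 were higher and none lower, with a median of -0.04. TWNK, the replicative helicase, had 1590 counts in the library labelled Ad-Bmal1 and 1217 in the library labelled Ad-GFP (1.34, 1.24 to 1.44), and the nuclease and helicase DNA2 had 142 under the Ad-Bmal1 label and 100 under the Ad-GFP label (1.45, 1.12 to 1.90). POLRMT, the mitochondrial RNA polymerase, had 3029 under the Ad-Bmal1 label and 2757 under the Ad-GFP label (1.12, 1.07 to 1.18), and TFAM, which packs mtDNA and starts its transcription, 948 under the Ad-Bmal1 label and 995 under the Ad-GFP label (0.975, 0.891 to 1.07). Intervals of the 19 lay above 1 for 5 and below it for 2, TOP1MT (0.828, 0.746 to 0.919) and TFB2M (0.871, 0.780 to 0.972). Of 23 that process or stabilise mitochondrial RNA, MTPAP alone met the rule, as higher. Intervals of the 23 lay above 1 for 6 and below it for NSUN4 alone (0.826, 0.716 to 0.953). Neither list had a larger share of higher genes than the 11.6% of all measured genes. Over all measured genes, 23.8% of intervals lay above 1 and 21.6% below it. MTPAP is the polymerase that adds the tails to mitochondrial mRNAs and had 196 counts under the Ad-Bmal1 label and 118 under the Ad-GFP label (1.70, 1.35 to 2.15). LRPPRC, which with its partner SLIRP stabilises those mRNAs, had 539 counts under the Ad-Bmal1 label and 454 under the Ad-GFP label (1.21, 1.07 to 1.38). SLIRP had 1427 counts under the Ad-Bmal1 label and 1221 under the Ad-GFP label (1.20, 1.11 to 1.29). LRPPRC and SLIRP did not meet the size rule and were picked after their values were seen. Of the 23, 14 had a ratio above 1 and 9 below it, with a median log2 ratio of 0.02.

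Of 17 measured nuclear regulators of respiratory genes, 2 were higher and 1 lower. These counts, and those of the lists that follow, stand beside 11.6% of all measured genes as higher and 11.2% as lower. PPRC1, a coactivator of the PGC-1 family, had 2567 counts in the library labelled Ad-Bmal1 and 1648 in the library labelled Ad-GFP (1.59, 1.5 to 1.70). GABPA, the DNA-binding subunit of an ETS factor, had 99 under the Ad-Bmal1 label and 68 under the Ad-GFP label (1.49, 1.08 to 2.06), and GABPB2, one of its partners, 125 under the Ad-Bmal1 label and 169 under the Ad-GFP label (0.757, 0.596 to 0.959). NRF1 had 413 under the Ad-Bmal1 label and 410 under the Ad-GFP label (1.03, 0.897 to 1.18), so the regulators did not share a direction. Of 23 genes used as markers of mitochondrial content, none met the rule in either direction and their median log2 ratio was 0.07. Citrate synthase, CS, had 4274 under the Ad-Bmal1 label and 4161 under the Ad-GFP label (1.05, 1.01 to 1.1). VDAC1, the outer membrane channel, had 8640 counts under the Ad-Bmal1 label and 7655 under the Ad-GFP label (1.15, 1.12 to 1.19), and SLC25A6, an ADP/ATP carrier, had 14042 under the Ad-Bmal1 label and 17180 under the Ad-GFP label (0.836, 0.818 to 0.855). Of 18 genes of the tricarboxylic acid cycle and its entry, 2 were higher, DLD (384 counts under the Ad-Bmal1 label and 312 under the Ad-GFP label, ratio 1.26) and PDHX (211 counts under the Ad-Bmal1 label and 155 under the Ad-GFP label, ratio 1.39), and none lower.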

How the data were processed

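The authors deposited a count per gene and library, in whole numbers with no sign of normalisation. Reads were paired, 150 bp, from polyadenylated RNA per the labels' protocols, and HISAT2 and GRCh38 (hg38) are named in the submitters' processing notes. Which program counted the reads, with which annotation and strand setting, is not given in the sources used here. Scaling used TMM (edgeR 4.0.16, R 4.3.3), with factors of 0.988 for Ad-Bmal1 and 1.01 for Ad-GFP. With 1 library per group no test could be fitted. Ratios have exact 95% Clopper-Pearson intervals from scipy 1.17.1. Quotients of summed counts have large-sample (Woolf) intervals, because the exact ones planned could not be computed at these counts. GENCODE v29 matched 99.5% of identifiers. Length, overlap and CPM per kb use 1 principal coding transcript per gene. All 13 mtDNA members and all of complex II were named. In each other complex these were the 3 nuclear members with the most counts, the 2 highest and the 2 lowest ratios among those with 100 or more counts, and all sets of related forms. NDUFS8, NDUFS3, NDUFS1, NDUFB6, NDUFA13, NDUFV2, NDUFA7, NDUFB8, ATP5PO and the extra list genes were chosen after their values were seen. The members and lists were chosen with earlier results of these data known. The readthrough symbols NDUFC2-KCTD14 and ATP5MF-PTCD1, with 0 counts, were left out. The values of 1 member are not reported here, though it is in the sums, medians and counts. The interval step was tested on simulated counts that carry counting error only, the error the interval assumes. That test therefore says nothing on variation between cultures or on duplicate reads. Alternatives were other scalings (DESeq2 1.42.0 size factors among them), filters, sizes, thinning, added copies and a length trend removed. A trend on base composition, and leaving out overlapped members, were added after seeing the data.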

Additional observations from a re-analysis of the deposited data

How the results depend on the processing

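The number of mtDNA members that met the size rule as higher was 5. It was 3 with DESeq2 size factors, 3 with total counts, 3 with total counts without mtDNA genes, 10 at a size of 1.1-fold and 1 at 1.5-fold. It was also 7 with the length trend removed, 4 with upper-quartile scaling and 4 with the trend on base composition removed. The median log2 ratio of mtDNA members was 0.23, and 0.32 with the length trend removed. The number of nuclear members that met it as higher was 0. It was 1 with pseudogene copies added (NDUFV2) and 3 at 1.1-fold (NDUFA1, NDUFS5 and SDHA). The number that met it as lower was 5, 14 at 1.1-fold and 0 at 1.5-fold, and 4 to 6 under the other alternatives. At 1.1-fold, 21.2% of all measured genes met the rule as higher and 19.2% as lower. At 1.5-fold these shares were 4.41% and 4.9%. The cause of the shifts between settings was not tested, beyond the size itself. Removing the length trend moved 27 of 51 named members outside their counting interval, and 8 of the 51 changed side of 1. Removing a trend on base composition, chosen after seeing the data, moved 2, and leaving out overlapped members, also chosen then, moved 0 of 50. The mtDNA sum over the nuclear sum moved under no alternative run beyond its interval. No paired analysis was possible because each group has 1 library and the numbers in the column names of the deposited counts, 1 for Ad-Bmal1 and 2 for Ad-GFP, are not shared. Variation between cultures cannot be estimated, and at 20 counts per CPM a member near the filter carries a wide interval.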
